A study of Mus musculus with 8 samples.

Results

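The proteasome genes described here were the genes whose symbol runs from Psma to Psmg followed by a digit, with pseudogene names left out. This rule found 50 of the 32285 genes in the count table. It includes the 5 immune members, Psmb8, Psmb9, Psmb10, Psme1 and Psme2, and 45 other members. By role, the others comprise 7 genes of the alpha ring, 7 of the beta ring, 6 ATPases, 11 non-ATPase genes of the lid and base, 7 assembly chaperones, 3 further activators or inhibitors and 2 genes of tissue-restricted subunits. A further 2 genes match by name only. Psmc3ip codes for a recombination factor, and Psme2b is a close relative of Psme2, so reads may have been divided between Psme2 and Psme2b and both levels are uncertain.

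The proteasome is the barrel-shaped protease that degrades proteins tagged with ubiquitin. Its core stacks rings of alpha subunits, which gate the entrance, and rings of beta subunits, which hold the active sites, and a cap of ATPases and lid subunits unfolds the substrate. Interferon gamma induces 3 alternative catalytic beta subunits, of which Psmb8 takes the place of Psmb5, Psmb9 of Psmb6 and Psmb10 of Psmb7. It also induces the activator ring built from Psme1 and Psme2, and the resulting immunoproteasome is known for making peptides that fit MHC class I molecules. Neutrophils arise in the bone marrow, where dividing precursors fill granules with proteins, and enter the blood as they mature.

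The mice were females of the C57BL/6J strain with a subcutaneous MOPC tumor (spelled MPOC in the treatment label), and no group without a tumor was included. Each library mixed wild-type (WT) mice with mice labelled Genotype_02, a gene knockout mouse model whose gene the labels do not name. Living cells were sorted as Gr1-positive and lineage-negative or as Gr1-negative and cKit-positive, with 1 RNA library for each of blood, bone marrow, spleen and tumor, which leaves tissue confounded with library. The tumor alone was digested with enzymes, for 45 min at 37 °C, which cannot be told apart from tumor in any comparison. Antibody hashtags marked mouse, organ and condition, but no label ties a hashtag number to a mouse or a genotype, so hashtags 1-4 and 5-8 are compared as numbers only. Ages and the number of mice behind each hashtag were not given in the sources used here.

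The table held 20012 cells, of which 17960 (89.7%) carried 1 of 8 hashtags in use (47.0% in the tumor), and 31 cell barcodes occurred in 2 libraries. Immature neutrophils were cells with at least 1% of their unique molecular identifiers (UMIs) on the specific granule genes Camp, Ngp and Ltf, mature neutrophils other cells with at least 3% on S100a8 and S100a9, and monocytes other cells with at least 2 Ly6c2 UMIs. Bone marrow held 2072 immature neutrophils, 1847 mature neutrophils and 991 monocytes, blood 6018 mature neutrophils and 611 monocytes, spleen 244, 3217 and 657, and the tumor 73 mature neutrophils and 161 monocytes. Median depth was 3058.5 UMIs per cell in blood mature neutrophils, 9781.5 in marrow immature neutrophils and 10870 in blood monocytes. Ly6c2 was not confined to monocytes. It reached 2 or more UMIs in 1971 of the 2072 marrow immature and 859 of the 1847 marrow mature neutrophils. Markers of other cells were present in the monocyte class. Marrow monocytes carried 9289 counts per 1000000 (CPM) of 7 progenitor markers and spleen monocytes 13529 CPM of 6 B cell markers. Tumor monocytes carried 4310 CPM of 7 macrophage and 5639 CPM of 8 dendritic cell markers.

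UMIs were summed over the cells of 1 hashtag, tissue and class, and levels are given as CPM of these sums (n = 8 sums unless stated). A UMI stands for 1 captured molecule and is not divided by gene length. Changes are log2 fold changes with their standard error (SE) from edgeR's quasi-likelihood test, and a member counts as changed where its p-value, adjusted by the Benjamini-Hochberg method over all genes tested, was under 0.05. Since no label ties a hashtag number to a mouse, it is not known whether the sums are separate mice, and the p-values measure the spread between these sums. A lower level per sum cannot be divided into fewer cells expressing a gene and less RNA per cell.

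The promoters of 5 members are shown because the genes moved differently in the comparisons: the immune Psmb8, Psmb9 and Psme1 and the constitutive Psmb5 and Psmb6. The sequences are RefSeq's on build GRCm38.p6, from 150 bases before to 20 bases from the start of the transcript, on the strand of the gene. Capitals mark matches, on either strand, to cores of 4 elements: the interferon-stimulated response element (GAAA, any 2 bases, GAAA), the gamma-activated site (TTCNNNGAA), the antioxidant response element (TGACNNNGC) and the CCAAT box (CCAAT).
Psmb8, chr17:34198045-34198214, forward strand: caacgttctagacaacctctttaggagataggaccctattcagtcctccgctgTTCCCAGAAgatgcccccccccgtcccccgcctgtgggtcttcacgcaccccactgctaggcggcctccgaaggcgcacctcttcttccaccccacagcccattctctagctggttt
Psmb9, chr17:34187311-34187480, reverse strand: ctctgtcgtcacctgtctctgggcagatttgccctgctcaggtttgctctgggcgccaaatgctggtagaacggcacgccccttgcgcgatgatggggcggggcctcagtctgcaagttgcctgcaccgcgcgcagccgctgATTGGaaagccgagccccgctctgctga
Psme1, chr14:55578344-55578513, forward strand: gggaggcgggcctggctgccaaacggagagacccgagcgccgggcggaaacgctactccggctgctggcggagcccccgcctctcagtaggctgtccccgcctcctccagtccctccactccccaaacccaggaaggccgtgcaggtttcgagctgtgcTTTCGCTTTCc
Psmb5, chr14:54617976-54618145, reverse strand: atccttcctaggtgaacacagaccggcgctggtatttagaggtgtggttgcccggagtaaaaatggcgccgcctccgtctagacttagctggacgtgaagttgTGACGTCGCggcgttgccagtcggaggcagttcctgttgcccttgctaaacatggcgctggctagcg
Psmb6, chr11:70525207-70525376, forward strand: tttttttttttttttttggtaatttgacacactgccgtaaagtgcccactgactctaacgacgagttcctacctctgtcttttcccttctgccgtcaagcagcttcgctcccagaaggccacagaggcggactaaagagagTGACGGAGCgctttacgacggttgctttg

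In these windows Psmb8 had a gamma-activated site core, TTCCCAGAA, at bases -97 to -89 from its start, and Psme1 had the response element core on the reverse strand, TTTCGCTTTC, at bases 10 to 19. Psmb5 and Psmb6 each had an antioxidant element core, TGACGTCGC at -47 to -39 and TGACGGAGC at -9 to -1. Psmb9 held only a CCAAT box, read as ATTGG at -8 to -4. Its RefSeq window of 300 bases shares 275 bases with that of Tap1, the peptide transporter gene on the other strand. Over full windows of 250 bases before and 50 after the start, 42 members matched the RefSeq table. Of these, 5 held the response element core (3.99% of all genes did), 3 the gamma-activated site core (9.55% of all genes), 6 the antioxidant element core (14.0%) and 15 the CCAAT box (41.1%). The full windows of the immune members Psmb10 and Psme2 held none of these cores. A match describes letters and shows no binding. Psmb8 lies at chr17:34198195-34201454 and Psmb9 at chr17:34182030-34187330, 10864 bases apart in the MHC region, Psme1 at chr14:55578494-55581527 and Psme2 at chr14:55587440-55591101, 5912 bases apart.

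Among the immune members, Psmb8, the immune counterpart of Psmb5, had its lowest levels in immature neutrophils and its highest in monocytes. Its CPM was 71.0, 87.0 and 121 (lowest, median and highest sum) in marrow immature neutrophils and 81.2, 107 and 136 in marrow mature neutrophils. In blood mature neutrophils it was 118, 141 and 163. The blood sums overlap those of marrow mature neutrophils and lie almost wholly above those of marrow immature neutrophils. Monocytes stood far above all neutrophils: the Psmb8 level was 425, 471 and 507 CPM in marrow, 418, 485 and 564 in blood, and 347, 405 and 532 in spleen. In the tumor, the 2 mature neutrophil sums held 231 and 238 CPM and the 4 monocyte sums between 397 and 620 CPM.

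Psmb9, the immune counterpart of Psmb6, did not separate the classes in this way. It stood at 66.2, 84.8 and 116 CPM in marrow immature neutrophils, 91.3, 119 and 155 in blood mature neutrophils, and 106, 150 and 219 in blood monocytes, and the last 2 groups overlap. Psmb10, the immune counterpart of Psmb7, was scarce in neutrophils, with 11.3, 16.6 and 23.2 CPM in marrow immature and 12.5, 16.1 and 22.7 CPM in blood mature sums. Blood monocytes held 179, 199 and 236 CPM of Psmb10, with no overlap. The activator genes Psme1 and Psme2 had medians of 102 and 82.9 CPM in marrow immature neutrophils, 99.5 and 59.2 in blood mature neutrophils and 377 and 234 in blood monocytes.

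**Figure D1:**
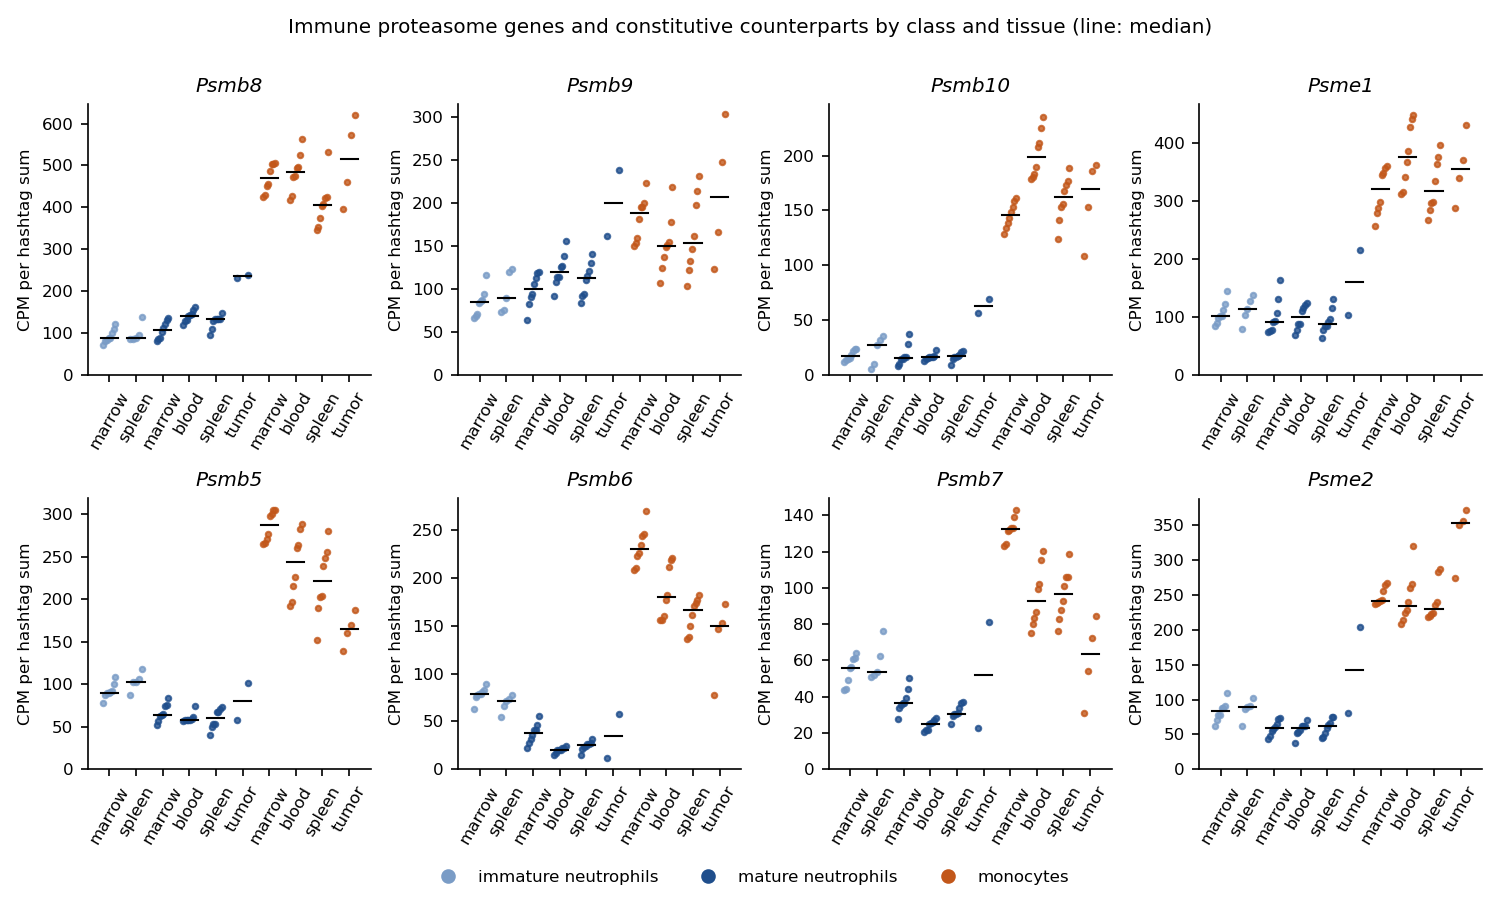
Each panel plots 1 gene, with CPM per hashtag sum on the vertical axis from 0 and class and tissue along the horizontal axis; points are hashtag sums and lines are medians. Psmb8, Psmb10, Psme1 and Psme2 sit far higher in monocytes than in neutrophils, Psmb9 overlaps between blood neutrophils and blood monocytes, and Psmb6 falls from a median of 78.4 CPM in marrow immature to 20.2 CPM in blood mature neutrophils.

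The constitutive catalytic subunits fell along the neutrophil series. Psmb6 had 62.9, 78.4 and 89.2 CPM in marrow immature, 22.6, 38.0 and 55.2 in marrow mature and 14.4, 20.2 and 24.5 in blood mature neutrophils. The immature sums all lie above the marrow mature sums, which overlap the blood sums only at their lower end. Psmb5 had medians of 90.3, 64.2 and 58.2 CPM in the same 3 groups, and Psmb7 56.0, 36.5 and 25.1 CPM.

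The ratio of an immune subunit to the constitutive one it replaces does not depend on the library size. The Psmb9 to Psmb6 UMI ratio was 0.847, 1.09 and 1.30 in marrow immature neutrophils, 1.79, 2.65 and 4.17 in marrow mature and 4.48, 5.55 and 10.8 in blood mature neutrophils, 3 groups without overlap. Spleen mature neutrophils, at 3.87, 4.22 and 6.36, overlapped both mature groups. In monocytes the medians were 0.783 in marrow, 0.778 in blood and 1.00 in spleen. The hashtag sets differed in blood and spleen monocytes. In blood the Psmb9 and Psmb6 medians were 164 and 158 CPM under hashtags 1-4 and 143 and 215 CPM under 5-8. In spleen they were 206 and 150 CPM under 1-4 and 127 and 174 CPM under 5-8. In marrow Psmb9 had the lower median in both sets. Thus the RNA of the immune subunit outnumbered that of its counterpart in mature neutrophils of marrow, blood and spleen. In marrow and blood monocytes it was less abundant in most sums. The tumor mature sums of hashtags 3 and 6 held 162 and 238 CPM of Psmb9 and 57.8 and 11.3 CPM of Psmb6. These values rest on few counts, in sums of 86466 and 88178 UMIs.

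The Psmb8 to Psmb5 ratio had medians of 0.996 in marrow immature, 1.56 in marrow mature and 2.37 in blood mature neutrophils, and of 1.64, 1.98 and 1.91 in marrow, blood and spleen monocytes. The 4 tumor monocyte sums (hashtags 2, 3, 4 and 6) had a median of 3.26 and overlapped the blood monocyte sums. The Psmb10 to Psmb7 ratio stayed under 1 in every neutrophil sum outside the tumor, with medians of 0.312, 0.403 and 0.644 in marrow immature, marrow mature and blood mature neutrophils. Blood monocytes reached 1.64, 2.13 and 2.94. The 3 catalytic pairs therefore ordered the classes differently. These ratios are descriptions and were not tested. Thinning every cell to 1000 UMIs moved the summed Psmb9 to Psmb6 ratio of marrow mature neutrophils from 2.83 to 4.85, and leaving out the cells with 2 or more Ly6c2 UMIs, an alternative chosen after seeing the data, moved it to 4.48.

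**Figure D2:**
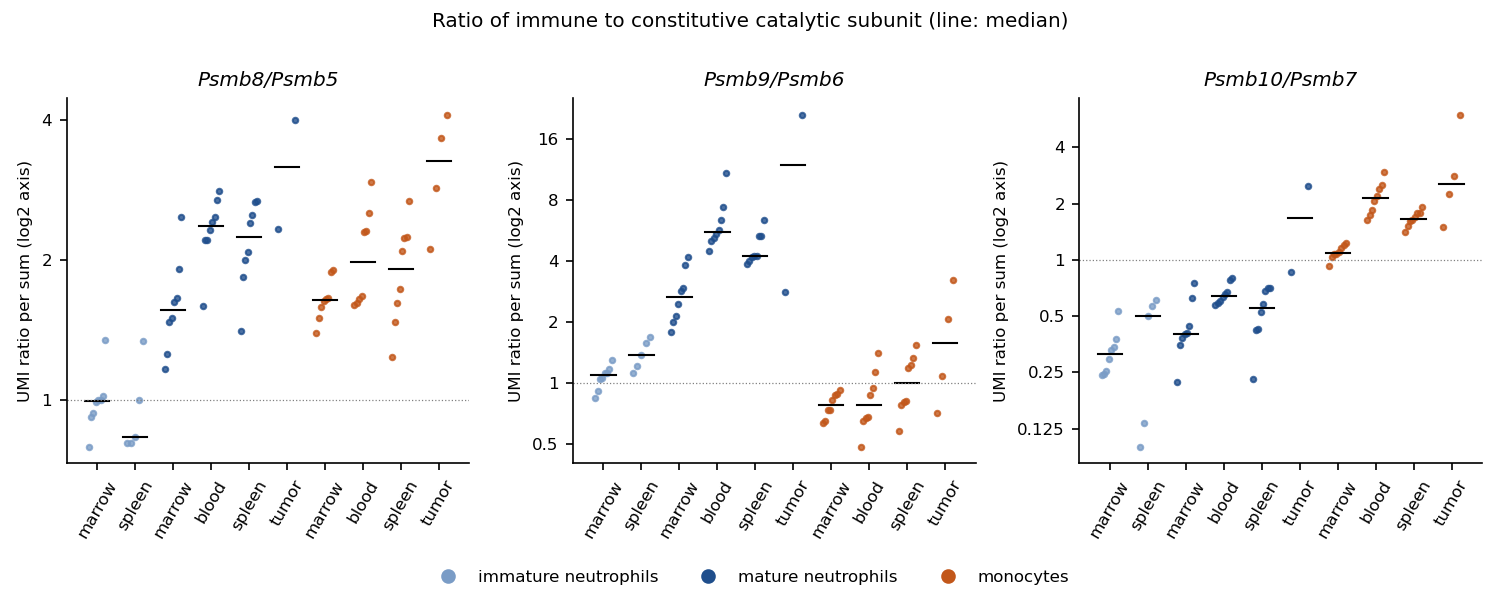
Each panel plots the UMI ratio of an immune to a constitutive catalytic subunit on a log2 axis, with class and tissue along the horizontal axis; points are hashtag sums, lines are medians, and the dotted line marks equal counts. Psmb9 to Psmb6 rises from a median of 1.09 in marrow immature to 5.55 in blood mature neutrophils and is 0.778 in blood monocytes.

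Maturation in bone marrow was compared as mature minus immature neutrophils, blocked on hashtag. Of 48 members tested, 33 fell and 4 rose, where 33.9% of all genes tested fell and 31.8% rose. The median change was -0.57 over the members and -0.08 over all genes. All 7 beta ring genes fell, as did all 6 ATPases, which drive unfolding, 5 of 7 alpha ring genes, 8 of 11 lid and base genes and 4 of 7 assembly chaperones. Among the immune members 2 rose, 1 fell and 2 did not pass the test.

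The falls were led by Psmd9, a chaperone of the base, at -1.39 ± 0.21 (SE; adjusted p = 1.86e-05), a 2.63-fold decrease. Its sums did not overlap, with medians of 14.2 CPM in immature and 5.77 CPM in mature sums. Psmg2, a chaperone of the alpha ring, changed by -1.21 ± 0.45 (adjusted p = 0.0251), and the ATPase Psmc5 by -1.16 ± 0.20 (adjusted p = 6.44e-05). Psmb6 fell by 1.14 on the log2 scale (SE 0.12, adjusted p = 2.19e-07) with no overlap, Psmb7 by 0.58 (SE 0.11, adjusted p = 0.000202) and Psmb5 by 0.48 (SE 0.09, adjusted p = 0.000187), both with overlapping sums. Psmc3ip, which matches by name only, fell by 1.17.

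Psme4, which codes for the activator PA200, rose by 0.95 ± 0.09 (adjusted p = 2.31e-08). It had 37.5, 45.0 and 51.7 CPM in immature and 63.8, 87.5 and 108 CPM in mature sums, with no overlap. Psmb9 rose by 0.25 ± 0.08 (adjusted p = 0.0153) and Psmb8 by 0.20 ± 0.08 (adjusted p = 0.0265), with overlapping sums. Psme2 fell by 0.50 (SE 0.09, adjusted p = 0.000117), while Psme1 at -0.14 ± 0.10 and Psmb10 at -0.13 ± 0.20 did not pass the test. Psme2b rose by 1.12 ± 0.28.

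The 2 rises among the catalytic immune members depend on the scale. With library sizes that leave out the 6 class-defining genes, the median of all genes moved by -0.31, Psmb8 stood at -0.11 and Psmb9 at -0.062, 39 members were lower and 2 higher, and 32.1% rather than 48.4% of all calls were higher. With DESeq2 they were 0.12 and 0.16 and neither passed, nor did they without the hashtag block (0.21 and 0.25). Cells thinned to 1000 UMIs left 12 members lower. Beside these falls, the summed level of 6 cycling markers was 1138 CPM in immature and 352 CPM in mature marrow neutrophils, none at 0 in either. The 7 progenitor markers went the other way, with 895 CPM in immature and 1228 CPM in mature marrow neutrophils. The part of these markers in the whole class was not tested. The split by cycling genes within immature neutrophils is given further on.

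**Figure D3:**
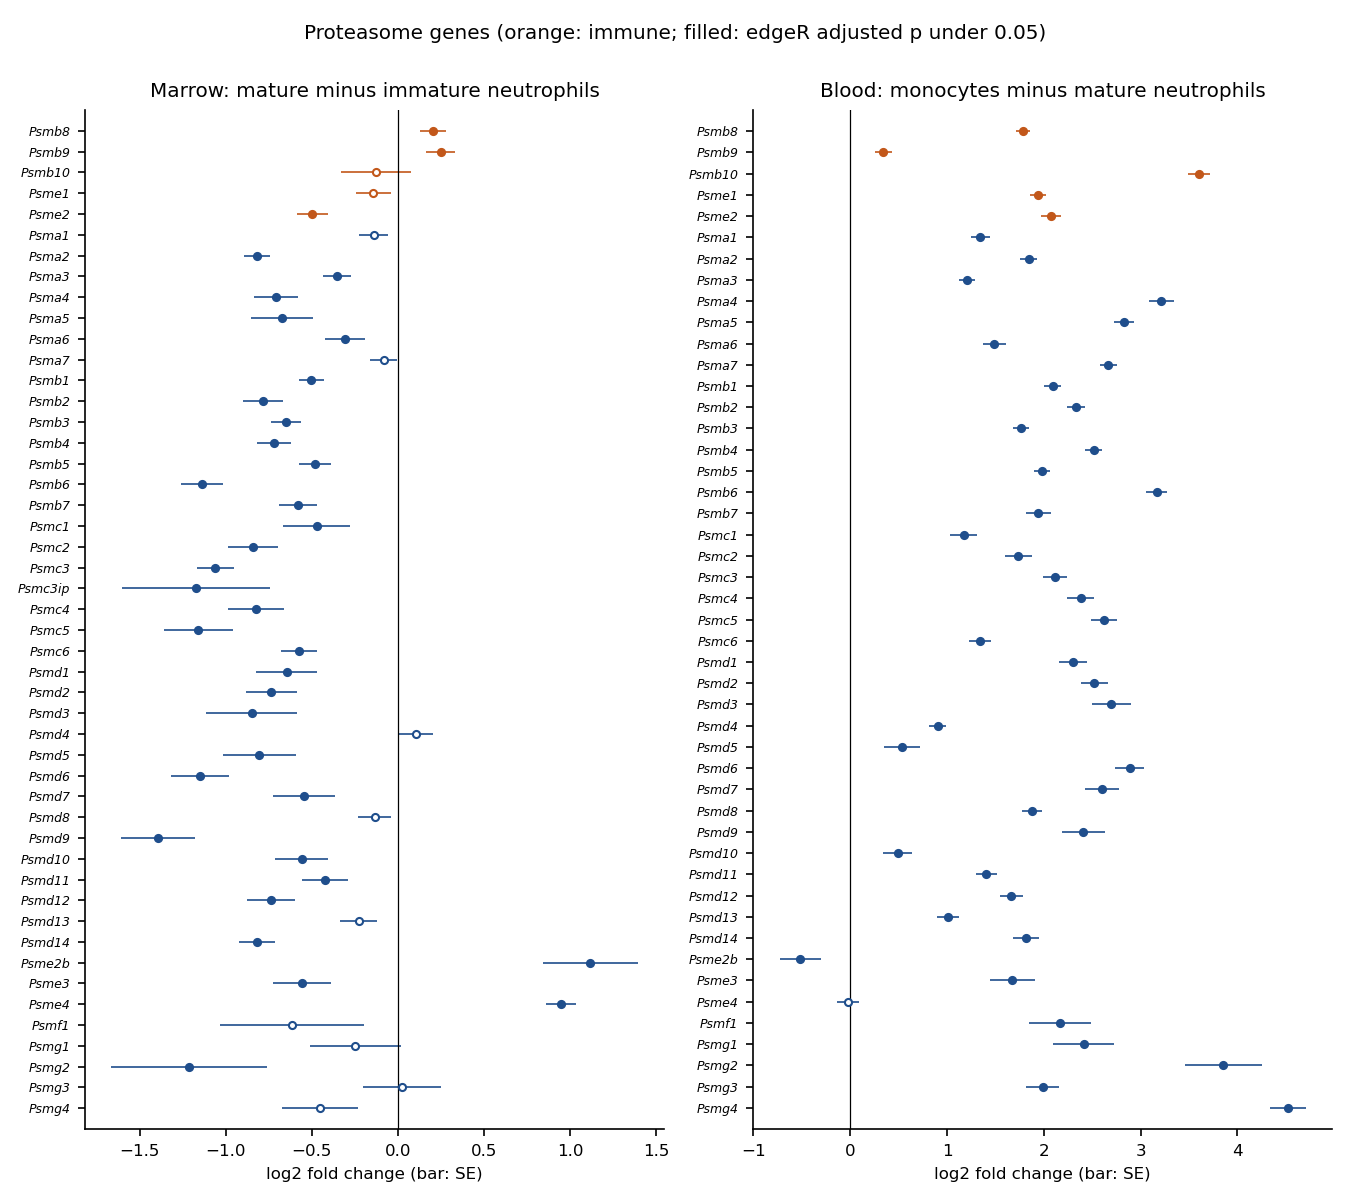
The panels plot the log2 fold change of every tested member in marrow mature minus immature neutrophils and in blood monocytes minus mature neutrophils, with bars for the SE; orange marks immune members and filled points an adjusted p under 0.05. In the first, most members lie below 0 and Psme4 stands at 0.95; in the second, all but Psme4 and Psme2b lie above 0.

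The genes that work with the proteasome gave a mixed picture in the same comparison. Where 33.9% of all genes fell and 31.8% rose, 9 of 14 tested partners fell and 1 rose: the deubiquitinase Usp14 changed by -1.58 and the assembly factor Pomp by -0.36, while Ecpas rose by 0.80. Of 7 regulators of proteasome genes 5 rose, among them Nlrc5, the activator of MHC class I genes, by 1.57 and Irf1 by 1.50. Of 10 peptide loading genes 6 rose and 3 fell, with H2-D1 at 1.61 and Tap1 at 0.66. These lists were chosen with earlier results known.

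In spleen, 26 of 39 tested members fell and 3 rose from immature to mature neutrophils (26.3% and 45.3% of all genes; 5 hashtags, n = 10 sums), with medians of -0.84 over the members and 0.36 over all genes. All 7 beta ring genes fell again. Psmb6 changed by -1.54 ± 0.20 (adjusted p = 1.23e-05), Psmb5 by -0.91 ± 0.17 and Psmb7 by -0.80 ± 0.18, each without overlap. Psmd6 of the lid fell by 2.01, Psmc5 by 1.64 and the deubiquitinase of the lid, Psmd14, by 1.61. Psmb8 rose by 0.36 ± 0.15 (adjusted p = 0.0421) and Psme4 by 0.73 ± 0.16 (adjusted p = 0.00101), but both calls were lost with DESeq2 (0.06 and 0.41), and with library sizes without the class genes Psmb8 stood at -0.14 and Psme4 at 0.22. The Psmb8 call was also lost without hashtag 1 (0.31), 4 (0.30), 5 (0.41) or 7 (0.30). With those library sizes the median of all genes moved by -0.50.

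The maturation changes of spleen and marrow were compared in 1 model with a term for their difference. Of 48 members, 4 had a lower and 1 a higher change in spleen (9.07% and 11.8% of all genes). Psmd14 differed by -0.79 ± 0.21 (adjusted p = 0.00685) and the alpha ring gene Psma3 by 0.44 ± 0.15 (adjusted p = 0.0408). None of the immune members passed this test, nor did Psmb5, Psmb6 and Psmb7, with Psmb5 closest at -0.44 ± 0.18 (adjusted p = 0.088). With TMM factors 10 members had a lower change in spleen, with library sizes without the class genes 13, and 7 did when the spleen sums of hashtag 3 were left out. The Psma3 call was lost without the spleen sums of hashtag 4, 5 or 7.

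Between tissues, immature neutrophils of spleen and marrow gave few calls among all genes (0.563% higher and 0.426% lower), and 0 of 47 members passed edgeR's test in either direction, a share near that background. At an unadjusted p under 0.05, 4 were higher and 1 lower, and DESeq2 called 1 lower. Psmb8 had 85.7, 87.0 and 139 CPM in spleen (n = 5), inside or above the marrow range, and changed by 0.15 ± 0.15.

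Mature neutrophils of blood and marrow did differ. In blood, 17 of 46 members were lower and 5 higher (14.4% and 33.8% of all genes), with a median of -0.17 over the members and 0.19 over all genes. Psmb6 changed by -0.84 ± 0.17 (adjusted p = 0.00012) and Psmb7 by -0.59 ± 0.13 (adjusted p = 0.000389), while Psmb5 at -0.14 ± 0.11 did not pass. Psmd14 fell by 1.09 without overlap, from a median of 38.4 to 19.0 CPM. The chaperone Psmg1 fell by 1.34 and Psmd1, the large scaffold of the base, by 1.03.

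Higher in blood were the alpha ring gene Psma3 at 0.59 ± 0.09 (adjusted p = 3.58e-06), without overlap, Psme2b at 0.70, Psmb8 at 0.41 ± 0.10 (adjusted p = 0.00155) and Psmb9 at 0.31 ± 0.12 (adjusted p = 0.0411). The Psmb9 call was lost under TMM (0.13), DESeq2 (0.08) and library sizes without the class genes (0.11), and the Psmb8 call under the last 2 (0.20 and 0.21). TMM moved the median of all genes by -0.18 and the share of calls that were higher from 70.1% to 51.8%. Leaving out cells with 2 or more Ly6c2 UMIs left 5 members lower in blood, with Psmb6 at -0.32, and thinning left 2. Beside these results, the cycling markers summed to 352 CPM in marrow and 20.2 CPM in blood mature neutrophils, and the 7 progenitor markers to 1228 and 11.5 CPM, with Mpo at 0 in blood. Their part was not tested.

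In spleen against blood, 4 of 46 members were higher in mature neutrophils and 0 lower (9.82% and 5.74% of all genes; 1 member was lower at an unadjusted p under 0.05). The 4 were Psmd1 at 0.71, Psme2b at 0.66, Psmd14 at 0.55 and Psme4 at 0.35. No immune member passed, and their differences ran from -0.14 ± 0.10 for Psmb8 to 0.08 ± 0.13 for Psme2. TMM gave 2 higher and 2 lower members and DESeq2 2 higher and 3 lower, and the share of all calls that were higher went from 63.1% to 38.4% and 39.9%. Over all cells of the class, progenitor markers summed to 392 CPM in spleen and 11.5 CPM in blood, dendritic cell markers to 907 and 365 CPM, B cell markers to 313 and 91.6 CPM and 6 erythroid markers to 5.83 and 4555 CPM. Their part was not tested.

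Tumor mature neutrophils rested on 2 hashtag sums, hashtags 3 and 6, from 37 cells. Of 46 members, 5 were higher than in blood, a share near that of all genes, and 0 lower, also at an unadjusted p (9.86% and 14.3% of all genes). They included 3 immune members: Psmb10 at 1.94 ± 0.55 (adjusted p = 0.00829; 56.7 and 69.4 CPM against at most 22.7 in blood), Psme2 at 1.32 ± 0.34 (adjusted p = 0.00362; 81.0 and 204 CPM) and Psmb8 at 0.74 ± 0.23 (adjusted p = 0.0156). None of these overlap the blood sums, but the 2 Psmb10 values rest on 11 UMIs in all. The alpha ring gene Psma4 rose by 1.74 and the beta ring gene Psmb2 by 1.11. Leaving out hashtag 3 left 1 of the 5 calls and leaving out hashtag 6 left 2, Psma4 stood at -0.76 under stricter classes and at -7.79 with a hashtag margin of 5, and with that margin or with thinned cells 0 members passed. Only 50.7% of the 73 cells carried 1 clear hashtag. Over all 73 cells, 8 monocyte markers summed to 1245 CPM against 661 CPM in blood, 6 T or NK cell markers to 205 against 23.1 CPM, 5 epithelial or tumor markers to 27.7 against 0.677 CPM and 12 neutrophil markers to 58345 against 167281 CPM, with Camp and Ngp at 0, and 14 of the cells had 2 or more Ly6c2 UMIs. The part of these markers was not tested.

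Blood monocytes were lower than marrow monocytes for 33 of 49 members and higher for 3 (35.5% and 22.5% of all genes), with a median of -0.34 over the members and -0.14 over all genes. All 6 ATPases, 6 of 7 beta ring genes and 9 of 11 lid and base genes fell. Psmb7 fell by 0.47 (SE 0.10, adjusted p = 0.000234) without overlap, the chaperone Psmg2 by 1.31 and Psmg1 by 1.34. Psmb10 rose by 0.46 ± 0.09 (adjusted p = 6.85e-05), again without overlap, and Psme1 by 0.26 ± 0.10 (adjusted p = 0.0305). Psma8, the testis counterpart of Psma7, stood at 3.36, 5.62 and 8.34 CPM in marrow monocytes against a median of 0.511 CPM in blood, and its median was 0 in the marrow, blood and spleen neutrophil groups.

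Marrow monocytes held 9289 CPM of progenitor and 2454 CPM of cycling markers against 108 and 31.3 CPM in blood monocytes. After leaving out cells with azurophil granule, T cell, Siglech or immunoglobulin RNA, 8 members were lower in blood in place of 33, and Psmb10 stood at 0.20 and did not pass. TMM left 20 lower and thinning 4.

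Against blood, spleen monocytes had 4 members higher and 4 lower (21.4% and 5.8% of all genes), among the lower Psmb10 at -0.32 ± 0.09 (adjusted p = 0.0101) and Psmb8 at -0.24 ± 0.09 (adjusted p = 0.0424). All sums of these genes overlap, the narrowed classes lost both immune calls, and TMM, which moved the median of all genes by -0.15 and the share of higher calls from 78.6% to 53.1%, gave 1 higher and 19 lower. With the hashtag as a block 8 members were lower in place of 4. The spleen to blood difference of monocytes was set against that of mature neutrophils in 1 model, and 0 of 47 members passed (1.05% of all genes higher, 0.173% lower; 3 members lower at an unadjusted p under 0.05).

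In tumor monocytes (n = 4), 11 of 49 members were lower than in blood and 3 higher (15.9% and 20.2% of all genes). The immune activator gene Psme2 rose by 0.47 ± 0.11 (adjusted p = 0.00117), from 208, 234 and 320 CPM in blood to between 274 and 372 CPM. Also called higher were the ATPase Psmc1 and Psmd11 of the lid and base, and no other immune member was called higher. Psmb5 fell by 0.54 (SE 0.16, adjusted p = 0.00667) without overlap, and Psmb7 by 0.58 (SE 0.18, adjusted p = 0.0135). The tumor sums were of hashtags 2, 3, 4 and 6, so most belong to 1-4, and the part of this imbalance was not tested. Under 1-4 the Psmb5 medians were 161 CPM in tumor and 206 CPM in blood monocytes. Under 5-8 the 1 tumor sum held 188 CPM against a blood median of 274 CPM. Psma7, the most abundant alpha ring gene of monocytes, fell by 0.90 and Psmg4, a chaperone, by 1.59, both without overlap. In the same comparison Nlrc5 rose by 2.69, Irf1 by 2.71 and Tap1 by 1.36. Leaving out 1 tumor sum at a time gave between 8 and 14 members lower, a hashtag margin of 5 gave 6, TMM 18, and thinned cells 0. In all tumor against all blood monocytes, macrophage markers summed to 4310 against 1199 CPM, dendritic cell markers to 5639 against 1141 CPM, T or NK cell markers to 916 against 127 CPM, neutrophil markers to 10406 against 3227 CPM and monocyte markers to 3290 against 6709 CPM. Their part was not tested.

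The largest contrast was between cell classes within a tissue. In blood, 45 of 47 members were higher in monocytes than in mature neutrophils and 1 was lower (50.2% and 33.6% of all genes). The median was 1.98 over the members and 0.40 over all genes. All members tested in the alpha ring, the beta ring, the ATPases, the lid and base, and the chaperones were higher. Marrow gave 46 higher and 2 lower of 48 (64.3% and 23.1%), and spleen 45 and 1 of 47 (56.9% and 27.8%).

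Psmg4, a chaperone of early core assembly, led in blood with 4.52 ± 0.18 (adjusted p = 1.71e-15), from a median of 3.88 CPM in neutrophils to 125 CPM in monocytes. Psmg2 rose by 3.85 and Psma4 by 3.22. Psmb10 rose by 3.60 ± 0.11 (adjusted p = 3.03e-17), a 12.1-fold difference, and Psmb6 by 3.17 ± 0.11 (adjusted p = 1.06e-16), 8.98-fold. Psmb8, Psme1, Psme2, Psmb5 and Psmb7 rose by between 1.79 and 2.08. None of these genes overlapped between the classes.

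Exceptions to this pattern were few. Psmb9 rose by only 0.34 ± 0.08 in blood (adjusted p = 0.000747) with overlapping sums, and the sign turned with TMM (-0.072) and DESeq2 (-0.13). In spleen it was 0.53 ± 0.10 and -0.079 with TMM, and in marrow 0.89 ± 0.09 without overlap and 0.08 with TMM. Psme4 did not pass in blood, at -0.02 ± 0.11, and was lower in marrow monocytes at -0.43 ± 0.09 (adjusted p = 0.000454). Psme2b was lower in all 3 tissues, by 0.52 in blood, 0.56 in spleen and 0.85 in marrow. TMM moved the median of all genes by -0.41 in blood, -0.61 in spleen and -0.81 in marrow. Under it 42 members were higher in blood, 41 in spleen and 44 in marrow, and 2 were lower in each. Of the members named above as higher in blood, all but Psmb9 passed under it.

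In the tumor, 14 members could be tested between the classes over 2 hashtags, and 4 were higher in monocytes and 0 lower (25.2% and 17.8% of all genes): Psma7 at 1.84, Psma2 at 1.72, Psmd8 at 1.59 and Psme2 at 1.19 ± 0.48 (adjusted p = 0.0374). Psmb9 stood at -0.44 ± 0.54. With 1 residual degree of freedom these calls fell to 0 under DESeq2 and to 1 under TMM.

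Within blood mature neutrophils, the 10% of cells highest in 7 antiviral interferon genes (Ifit1, Ifit2, Ifit3, Isg15, Rsad2, Oasl2 and Usp18) were compared with the rest, none of these being a proteasome gene. Of the 559 high cells, 558 carried hashtags 1-4, so the test ran over hashtags 1 to 4 (n = 8 sums, blocked). Of 39 members tested, 4 rose, all of them immune, and 0 fell (3.27% and 1.41% of all genes). At an unadjusted p under 0.05 there were 5 higher and 2 lower, and the median was -0.11 over the members and -0.05 over all genes. Leaving out each hashtag in turn left 4 or 5 members higher.

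Psmb8 had 233, 214, 259 and 303 CPM in the high cells of hashtags 1, 2, 3 and 4 and 134, 130, 127 and 135 CPM in the rest, and rose by 0.92 ± 0.10 (adjusted p = 1.27e-07). Psmb9 had 262, 195, 188 and 275 CPM in the high cells and 105, 102, 118 and 132 CPM in the rest, and rose by 1.00 ± 0.11 (adjusted p = 1.26e-07). Both genes were higher in the high cells of 4 of 4 hashtags, with no overlap. Psme1 rose by 0.64 ± 0.11 (adjusted p = 0.000323; 157 to 190 CPM against 102 to 115) and Psme2 by 0.77 ± 0.15 (adjusted p = 0.0015; 79.2 to 109 CPM against 42.3 to 63.5).

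Psmb10 did not move with them. It had 15.5, 14.8, 21.8 and 12.5 CPM in the high cells and 16.5, 15.4, 22.9 and 16.6 CPM in the rest, a change of -0.13 ± 0.31, but the high values rest on 4 to 8 UMIs each. The constitutive counterparts did not pass either, with Psmb5 at 0.17 ± 0.18, Psmb6 at -0.15 ± 0.29 and Psmb7 at -0.20 ± 0.29. Of the peptide loading genes 5 of 9 rose, Tap1 most, by 1.34, and Nlrc5 rose by 1.97. Median depth was 2773 UMIs in the high cells and 3019 in the rest, and 124 cells lay within 10% of the threshold, so the split is a range and not a cell type.

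Marrow immature neutrophils were split in the same way by 10 genes of the cell cycle, comparing the highest 25% with the rest over 7 hashtags (n = 14 sums, blocked). Of 46 members, 39 rose and 1 fell (41.0% and 26.0% of all genes), with a median of 0.76 over the members and 0.20 over all genes. All alpha ring, beta ring, ATPase and lid and base genes rose. The ATPase Psmc3 had 86.3, 108 and 132 CPM in cycling-high sums and 32.0, 37.8 and 44.1 CPM in the rest (1.48 ± 0.10, adjusted p = 4.04e-10), without overlap. Psmd7 of the lid rose by 1.54, Psmg1 by 1.40 and Psmg2 by 2.94, the last from a median of 1.41 to 17.4 CPM.

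Constitutive catalytic genes rose more than their immune counterparts here. Psmb5 rose by 0.81 ± 0.09, Psmb6 by 0.91 ± 0.10 and Psmb7 by 0.89 ± 0.11, against 0.39 ± 0.09 for Psmb8, 0.43 ± 0.10 for Psmb9 and 0.57 ± 0.21 for Psmb10. These differences between genes were not tested. Psme1 and Psme2 did not pass, at 0.15 ± 0.08 and 0.11 ± 0.09. Psme4 alone fell, by 0.88 (SE 0.13, adjusted p = 1.28e-05), from 43.5, 53.7 and 62.4 CPM in the rest to 22.2, 27.2 and 39.2 CPM in cycling-high sums. High cells were deeper, with a median of 17463 against 8121.5 UMIs, and after thinning every cell to 1000 UMIs 6 members rose.

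**Figure D4:**
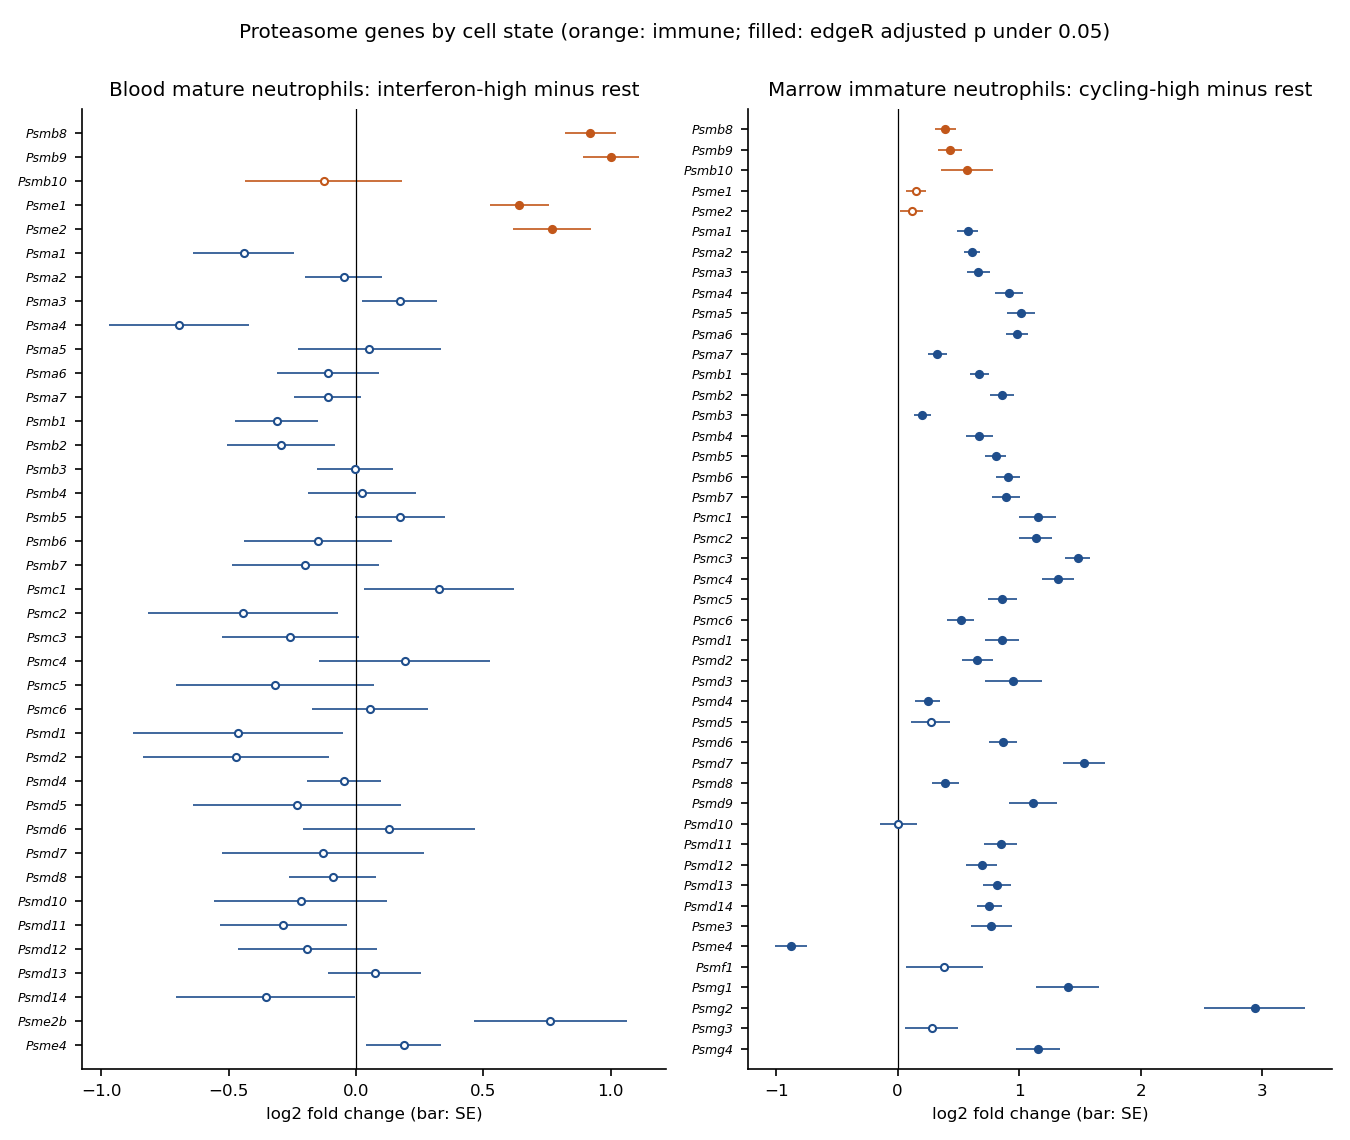
The panels plot the log2 fold change of every tested member, with bars for the SE, for interferon-high minus other blood mature neutrophils and for cycling-high minus other marrow immature neutrophils; orange marks immune members and filled points an adjusted p under 0.05. In the first only Psmb8, Psmb9, Psme1 and Psme2 are filled; in the second 40 members are filled and Psme4 stands at -0.88.

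Between hashtags 5-8 and 1-4, 17 member calls were made over 8 fits of class and tissue, of which 12 were lower and 5 higher in 5-8. The immune members made up 8 of the 12 lower calls and 0 of the higher ones. The share of all genes called lower was 4.98% in marrow immature, 1.92% in marrow mature, 3.7% in blood mature and 2.15% in spleen mature neutrophils, and 1.76% in marrow, 3.79% in blood and 2.01% in spleen monocytes. In the same order 0.326%, 0.285%, 0.626%, 0.372%, 0.785%, 2.76% and 0.966% were called higher. None of 36 members passed in marrow mature neutrophils, and none of 30 in spleen immature neutrophils, where 0 genes passed at all.

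Psme1, the alpha part of the immune activator, and Psmb9 were called in 3 fits each. In blood mature neutrophils it had 115, 120, 111 and 124 CPM under hashtags 1 to 4 and 87.5, 88.4, 77.5 and 68.9 CPM under 5 to 8, a change of -0.53 ± 0.10 (adjusted p = 0.0032). In blood monocytes it had 449, 387, 429 and 442 CPM against 316, 313, 368 and 342 CPM (-0.35 ± 0.10, adjusted p = 0.0336), and in marrow monocytes it changed by -0.33 ± 0.07 (adjusted p = 0.0127). Every sum of hashtags 1-4 lay above every sum of 5-8 for Psme1 in 6 of the 8 fits, all but those of immature neutrophils, where 3.73% to 9.38% of all genes tested in those fits were placed that way. The blood neutrophil call passed under all alternatives run.

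Psmb9 was lower in spleen monocytes by 0.68 (SE 0.14, adjusted p = 0.0224), from between 161 and 231 CPM to between 103 and 146 CPM, in marrow monocytes by 0.32 (adjusted p = 0.0308) and in marrow immature neutrophils by 0.38 (adjusted p = 0.0445), in each case without overlap. Marrow immature neutrophils also had lower Psmb10, by 0.68 (SE 0.17, adjusted p = 0.0198), and Psmb8, by 0.37 (adjusted p = 0.0363). The chaperone Psmg4 and the alpha ring gene Psma7 were lower there by 0.73 and 0.30. The median of all genes in that fit was -0.15. With TMM factors, with DESeq2 and with library sizes without the class genes, 0 members passed in marrow immature neutrophils. In blood mature neutrophils Psma4 was lower by 0.59 (adjusted p = 0.0432), and Psme2b was lower in spleen mature neutrophils by 0.97.

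The 5 higher calls were all constitutive genes of monocytes. In blood they were Psmc4 at 0.53, Psma1 at 0.49, Psmd6 at 0.42 and Psmb5 at 0.41 ± 0.10 (adjusted p = 0.0166), and in marrow Psmc3 at 0.29. In blood monocytes 10 of 43 members, none immune, had all sums of 5-8 above all of 1-4 (6.6% of all genes).

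Interferon genes moved with the hashtag sets. The 7 antiviral genes summed to between 875 and 1499 CPM in blood mature neutrophils under hashtags 1-4 and between 67.6 and 110 CPM under 5-8, and in blood monocytes to between 489 and 547 CPM against 1.52 to 14.6 CPM. H2-K1 changed by -1.46 in blood mature neutrophils. With the interferon-high cells left out, Psme1 in blood mature neutrophils stood at -0.41 ± 0.10 (adjusted p = 0.0346) and Psma4 at -0.67 (adjusted p = 0.0252), an alternative chosen after seeing the data. The cells left were still uneven: of the 1117 cells in the highest 20% for these genes, 1081 carried hashtags 1-4. Whether Psme1 differs apart from interferon genes was not tested. What the 2 hashtag sets stand for is not given, so genotype, mouse and staining cannot be told apart.

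These calls depended on the scaling and on single hashtags. TMM, which moved the median of all genes by up to 0.14 within these fits, left 8 calls of 17 and DESeq2 5. With TMM the share of all calls that were higher went from 14.5% to 34.1% in blood mature neutrophils, from 6.16% to 30.4% in marrow immature, from 13% to 36.0% in marrow mature and from 14.8% to 27.4% in spleen mature neutrophils. Leaving out 1 hashtag number left between 2 and 14 calls, with 2 without hashtag 3, 8 without hashtag 1, 6 without 4, 11 without 5, 7 without 6, 8 without 7 and 6 without 8.

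**Figure D5:**
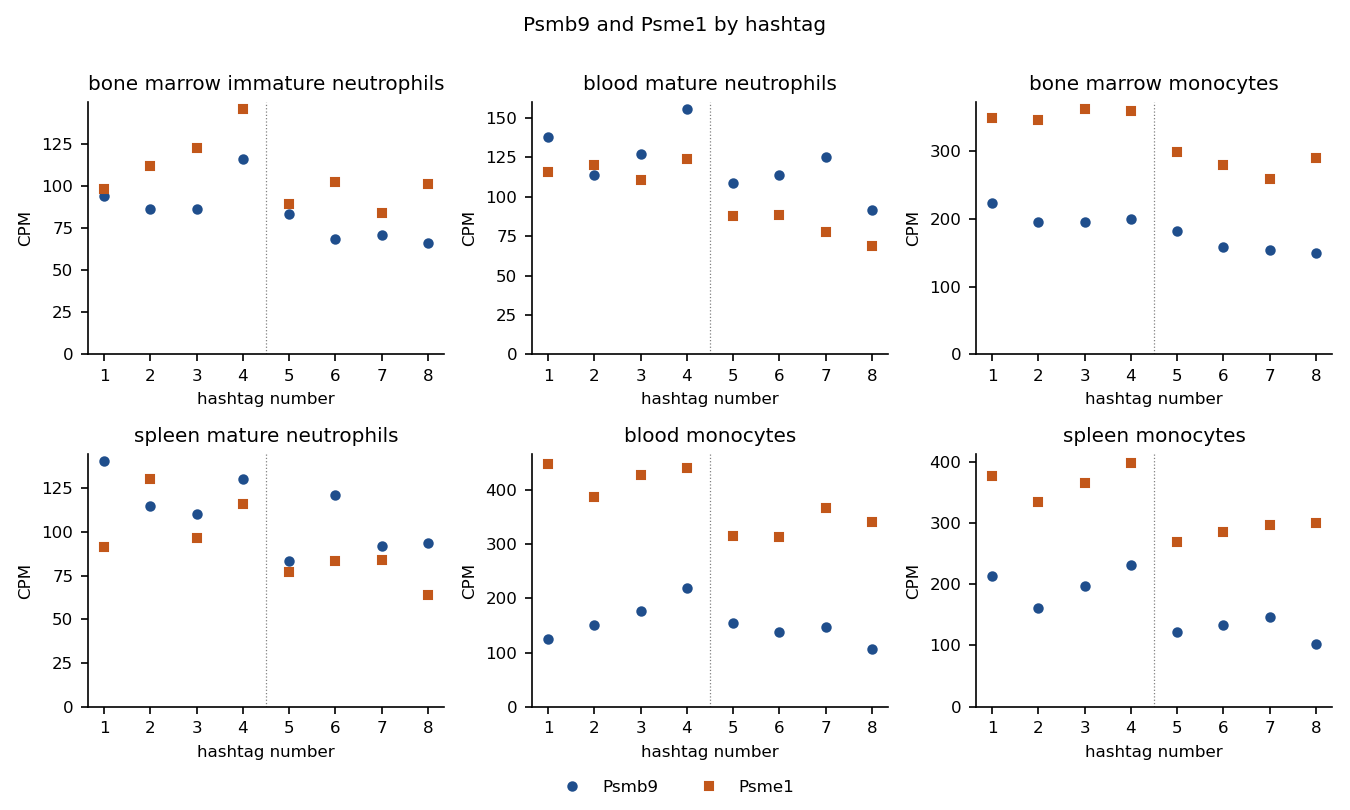
Each panel plots the CPM of Psmb9 (circles) and Psme1 (squares) per hashtag in 1 class and tissue (6 of the 8 fits, without marrow mature and spleen immature neutrophils), with hashtags 1 to 8 along the horizontal axis and the dotted line dividing the 2 sets. Psme1 lies higher under every hashtag of 1-4 than under any of 5-8 in the panels shown except marrow immature neutrophils, where the ranges of 98.0 to 146 CPM and 84.1 to 102 CPM overlap.

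Psmb11, Psmf1 and Psme3 were among the less abundant members. Psmb11, the catalytic subunit of the thymus cortex, had 3 UMIs in all 20012 cells and was in no test. Psmf1, an inhibitor of the core, had medians between 2.06 and 5.80 CPM in the neutrophil groups of marrow, blood and spleen and between 10.8 and 16.3 CPM in the monocytes of these tissues. Psme3, the nuclear activator subunit, had a median of 17.6 CPM in marrow immature and 6.51 CPM in blood mature neutrophils.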

How the data were processed

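Single-cell RNA libraries of blood, bone marrow, spleen and tumor cells were analysed from the deposited table of raw UMI counts per gene and cell, with hashtag counts in the same table. Reads were processed with Cell Ranger 7.0.1 against mm10, per the submitters' processing notes, and the tie of barcode suffix to tissue rests on the library numbers in the labels. A cell was given a hashtag where the highest had at least 20 counts and 3 times the next. No doublet caller was run, and cells without 1 clear hashtag went into no test. Sums were made for each class of a hashtag in a tissue that held 20 or more cells (5 in the tumor).

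Sums were tested with edgeR 4.0.16 (R 4.3.3) with total UMIs as library sizes, over genes with at least 100 summed UMIs, adjusted by the Benjamini-Hochberg method. Class, state and difference fits had the hashtag as a block, and tissue fits used all tissues of a class without one. Alternatives were TMM factors, DESeq2 1.42.0, a minimum of 10 UMIs, library sizes without Camp, Ngp, Ltf, S100a8, S100a9 and Ly6c2, cells thinned to 1000 UMIs, stricter classes, a hashtag margin of 5 times, a top 20% split, the block, and leaving out hashtags. Narrowed classes, the blood fit without interferon-high cells and leaving out hashtags in the spleen and interferon-high fits were added after seeing the data. The fits were tested on simulated data.

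The members and gene lists were chosen with earlier results of these data known. The plan was to name the 5 immune members and Psmb5, Psmb6 and Psmb7 in every comparison. Up to 4 members with the largest called rise and fall were to be added. In many comparisons only some of these are given, and other members were named after their values were seen. Same-numbered sums deviated together in mature neutrophils of blood and marrow (correlations of 0.241 to 0.522) and of blood and spleen (0.306 to 0.589). A hashtag correlated best with its own number for 3 of 8 hashtags between blood and marrow and 7 of 8 between blood and spleen. Every other pair of tissues had at least 1 correlation under 0.1. Values of some genes of the pathway lists are not reported here.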

Additional observations from a re-analysis of the deposited data

Results flagged for a closer look

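In 72 groups of 4 to 10 sums, 4 had a highest sum far from the others by Dixon's criterion, where chance gives about 1 in 20 groups. Psmb10 in blood mature neutrophils stood at 22.7 CPM under hashtag 3, with the next sum at 16.9 CPM. Psmb5 in blood mature neutrophils stood at 74.2 CPM under hashtag 8, with the next at 61.3 CPM. Psmb8 stood at 139 CPM in spleen immature neutrophils of hashtag 3, which held 39 cells, with the next at 95.3 CPM, and at 532 CPM in spleen monocytes of hashtag 4, with the next at 424 CPM.

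The change from immature to mature neutrophils differed between spleen and marrow for 5 of 48 members in edgeR's test of the difference, adjusted by the Benjamini-Hochberg method. Over all genes, 11.8% had a higher and 9.07% a lower change in spleen, so members were called no more often than genes in general. The spleen minus marrow difference was -0.41 ± 0.14 (SE) for Psma2 (adjusted p = 0.0401), 0.44 ± 0.15 for Psma3 (adjusted p = 0.0408) and -0.79 ± 0.21 for Psmd14 (adjusted p = 0.00685). It was -1.25 ± 0.39 for Psme3 (adjusted p = 0.0226) and -2.36 ± 0.64 for Psmg1 (adjusted p = 0.0101). Among these calls, Psmd14 passed with any 1 spleen hashtag left out, and each of the others was lost without at least 1.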

How the results depend on the processing

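Of 2265 results of named genes under alternatives, 1894 kept their direction and side of the threshold, 332 lost and 31 gained a call and 8 reversed. DESeq2 gave 1 member lower in spleen immature neutrophils (0 with edgeR), 28 lower in blood mature neutrophils (17), 2 higher in spleen mature (4), 8 higher in tumor mature (5), 1 higher and 18 lower in spleen monocytes (4 and 4), 0 higher in tumor monocytes against mature neutrophils (4), 8 with a lower maturation change in spleen (4) and 5 hashtag calls (17). In the same order, TMM gave 26 lower in blood mature, 2 higher in spleen mature and 3 higher in tumor mature neutrophils, 20 lower in blood monocytes (33), 1 higher and 19 lower in spleen monocytes, 18 lower in tumor monocytes (11), 1 between the tumor classes, 10 for the maturation change and 8 hashtag calls.

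Cells thinned to 1000 UMIs, which carry fewer counts, gave 2, 1 and 0 for the 3 mature tissue counts, 4 lower in blood monocytes, 0 and 0 in spleen monocytes and 0 in tumor monocytes. They gave 12 lower with maturation in marrow (33) and 3 in spleen (26), 27 higher in spleen monocytes against mature neutrophils (45), 0 between the tumor classes, 6 with cycling (39), 0 for the maturation change and 2 hashtag calls. Thinned ratios were 2.69 and 1.29 for Psmb10 to Psmb7 in blood and spleen monocytes, 0.526 for Psmb8 to Psmb5 in spleen immature neutrophils, and 4.85 and 1.00 for Psmb9 to Psmb6 in marrow mature and spleen immature neutrophils.

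Narrowed classes gave 5, 2 and 2 for the mature tissue counts, 8 lower in blood monocytes, 0 and 2 in spleen monocytes, 0 between the tumor classes and 1 for the maturation change, with ratios of 0.566 and 1.37 for Psmb10 to Psmb7 in blood mature neutrophils and marrow monocytes and 4.48 for Psmb9 to Psmb6 in marrow mature neutrophils. Stricter classes gave 2 higher in spleen mature and 2 in tumor mature neutrophils, 17 lower in tumor monocytes, and ratios of 0.550 for Psmb10 to Psmb7 in blood mature and 19.0 for Psmb9 to Psmb6 in tumor mature neutrophils. A hashtag margin of 5 gave 0 higher in tumor mature neutrophils, 6 lower in tumor monocytes, 9 hashtag calls and a Psmb8 to Psmb5 ratio of 11 in tumor mature neutrophils. Library sizes without the class genes gave 3 higher in tumor mature neutrophils, 1 between the tumor classes, 13 for the maturation change and 11 hashtag calls, and a minimum of 10 UMIs gave 1 between the tumor classes.

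With the replicate block 8 members were lower in spleen monocytes in place of 4, and adding or removing the block moved no other leading count by over 1.5 times. Leaving out 1 hashtag gave 2 to 14 hashtag calls, 1 to 2 higher in tumor mature neutrophils, 8 to 14 lower in tumor monocytes, 21 to 25 lower with maturation in spleen, 3 to 7 for the maturation change and 4 to 5 interferon-high members. Reversed were Psma4 in tumor mature neutrophils (-0.76 with stricter classes and -7.79 with the wider margin), Psmb8 and Psmb9 with maturation in marrow (-0.11 and -0.062) and Psmb8 in spleen (-0.14) with library sizes without the class genes, and Psmb9 in monocytes against mature neutrophils of blood (-0.072 with TMM and -0.13 with DESeq2) and spleen (-0.079 with TMM). The cause was not tested beyond the fewer counts of thinned cells. Leaving out hashtags between the tumor classes, the wider margin there, and thinned cells in the spleen immature hashtag fit gave no value.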
